A study of Homo sapiens with 4 samples.

Results

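The genes described here lie on the long arm of chromosome 13, from DACH1 in band 13q21 to CHAMP1 near the telomere in 13q34. They were compared between MV4-11R, a drug-resistant acute myeloid leukaemia line, and MV4-11, the drug-sensitive line from which it was derived. The list holds 58 genes, of which 57 were measured among the 18417 genes tested. UPF3A, a factor of nonsense-mediated mRNA decay, was not analysed here, and TMCO3 was matched through its current RefSeq symbol SLC9D1. The listed genes were chosen by their log2 signal in these 4 arrays, as neighbours on 13q that were mostly lower in MV4-11R. The size and direction of the difference in the listed genes are therefore a description, and no p-value is given for a listed gene. For each gene the probe set of highest mean signal over the 4 arrays was used.

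RNA was hybridised to Affymetrix arrays, 2 for each line. MV4-11R was obtained by growing MV4-11 for 3 months in rising amounts of the kinase inhibitor PKC412, also called midostaurin, which blocks FLT3, and is labelled as low in EZH2, the methyltransferase of Polycomb repressive complex 2. MV4-11 is labelled as drug-sensitive and high in EZH2. Both lines descend from one leukaemia with an MLL fusion and an internal tandem duplication in FLT3. The labels say neither whether MV4-11R is 1 clone nor whether the 2 arrays of a line came from separate cultures, so the spread between arrays may be technical only.

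Bands 13q21 to 13q34 make up the distal part of the long arm of an acrocentric chromosome. The genes there are neighbours rather than a pathway. They include DNA ligase IV, the E2F partner TFDP1, a subunit of the anaphase-promoting complex, the catalytic ribonuclease of the RNA exosome, lysosomal and Golgi membrane proteins, and the B cell survival factor TNFSF13B, which myeloid cells make. DNA copy number was not analysed here. In RNA from a whole culture, fewer cells that express a gene and less RNA per cell cannot be told apart.

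Median signal over all probe sets lay between 6.75 and 6.78 on the log2 scale on the 4 arrays. Pearson's r over genes, which are not replicates, was 0.993 between the MV4-11R arrays, 0.994 between the MV4-11 arrays and 0.968 to 0.974 for any MV4-11R array against any MV4-11 array. Of 8 myeloid markers 7 were measured, and all 7, including LYZ, SPI1 and CD68, read above a background guide in both lines. That guide, 6.26, is the 95th percentile of 341 olfactory receptor genes, which blood cells mostly do not express. Of 14 measured markers of other cell types, 6 read above the guide in both lines (CD79A, PAX5, NKG7, KRT19, COL1A1 and COL1A2). CD3D, CD3E, MS4A1, HBB and EPCAM read below it in both. The mean level of the 7 myeloid markers was 10.02 in MV4-11R and 10.45 in MV4-11, with CSF1R at 8.65 in MV4-11R and 10.38 in MV4-11. The mean level of the 3 B cell markers was 6.54 in MV4-11R and 6.21 in MV4-11, and that of the 4 T and NK cell markers 6.86 in MV4-11R and 6.61 in MV4-11. Their part in the differences below was not tested.

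Most of the listed genes were lower in MV4-11R. In limma's fit over all genes, 43 of the 57 measured genes fell (adjusted p under 0.05, Benjamini-Hochberg) and 0 rose, with 0 rises also at an unadjusted p under 0.05. Of all 18417 genes, 7.13% fell by the same rule and 7.92% rose. The median log2 difference of the 57 genes, MV4-11R minus MV4-11, was -0.94, which is 1.92-fold lower, with quartiles at -1.20 and -0.50. The median over all 18417 genes was 0.01. Of the 43 genes that fell, 26 were at least 2-fold lower and 17 less than that. Both MV4-11R arrays lay below both MV4-11 arrays for 50 of the 57, and the groups overlapped for 7. The same separation was seen for 26.0% of all genes, and the opposite one, which 0 of the 57 showed, for 29.6%. In the 4 possible pairings of an MV4-11R with an MV4-11 array, the median ran from -0.99 to -0.88, and between 50 and 56 of the 57 genes were lower on the MV4-11R array.

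**Figure D1:**
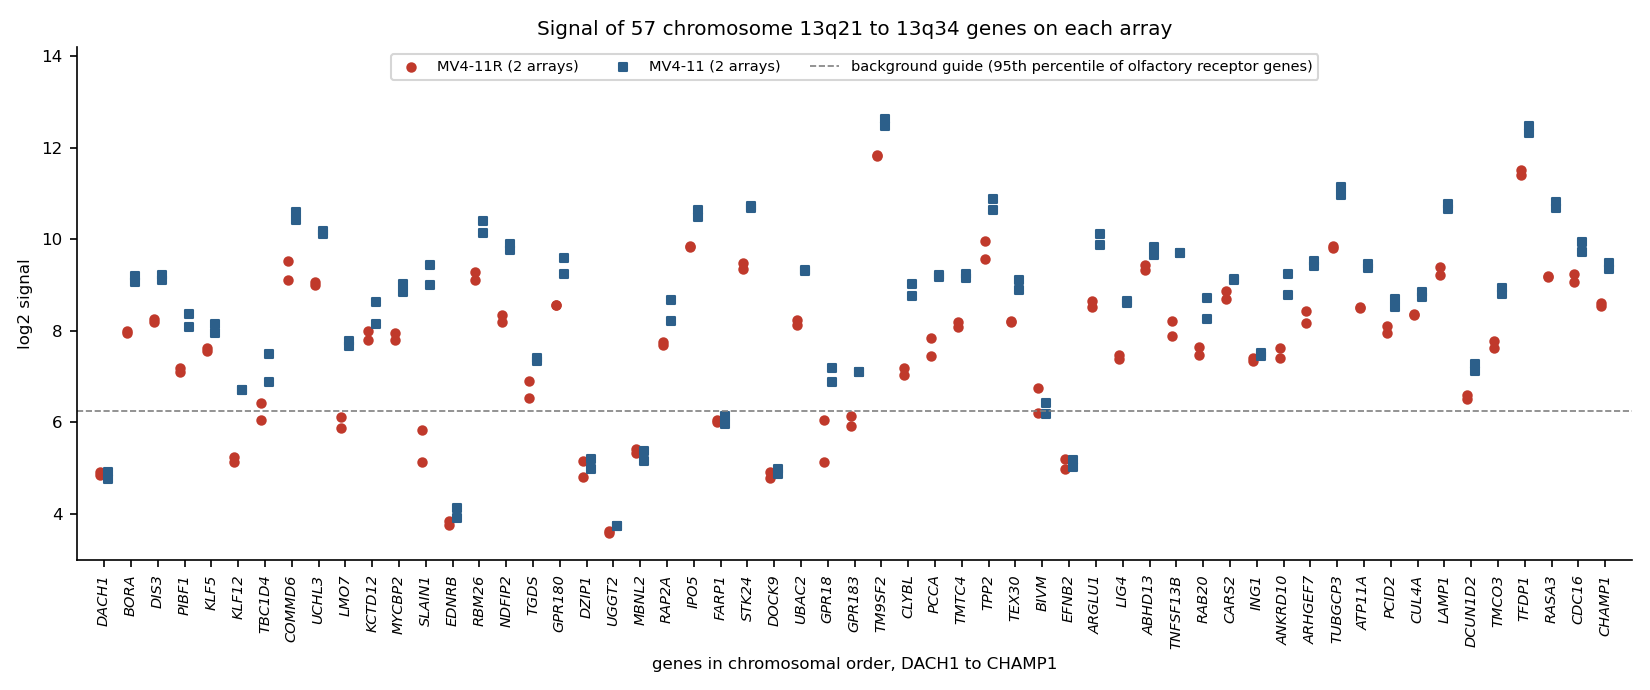
Log2 signal (vertical axis) of the 57 measured genes in chromosomal order (horizontal axis), with the 2 MV4-11R arrays as circles left of the 2 MV4-11 arrays as squares, and the background guide of 6.26 as a dashed line. The groups are apart, with MV4-11R lower, for 50 genes, and the largest gap is at SLAIN1.

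Some of the listed genes read near background. For 8 genes both lines read at or under the guide of 6.26, and none of these was called. For 6 genes (KLF12, TBC1D4, LMO7, SLAIN1, GPR18 and GPR183) only the MV4-11 mean was above it, so their folds are not exact. The remaining 43 read above it in both lines. Among these, 6 did not pass the test, namely KLF5, KCTD12, BIVM, ABHD13, CARS2 and ING1. Of all 57 measured genes 75.4% fell, and of the 48 with a mean over both lines above the guide 42 fell (87.5%). SLAIN1, LMO7, GPR18, GPR183 and TBC1D4 count among the 48 only through MV4-11. The counts by function group below are to be read beside these shares, and differences between groups were not tested.

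Genes of DNA repair and chromatin differed among themselves, with 2 of 3 fallen and a median of -0.44. LIG4 (Entrez gene 3981), the ligase that seals double-strand breaks in non-homologous end joining, read 7.39 and 7.48 in MV4-11R, against 8.64 and 8.62 in MV4-11. Both MV4-11R arrays were low and close together, and the gene fell 2.29-fold (log2 difference -1.20, SE 0.11). CUL4A, the scaffold of a family of ubiquitin ligases that act in DNA damage recognition and replication, read 8.37 and 8.34 in MV4-11R, against 8.86 and 8.74 in MV4-11. Its fall was small (-0.44, SE 0.11), the smallest among the 43 called genes, although the lines did not overlap. ING1, a reader of methylated histone H3 in the SIN3 deacetylase complex, read 7.33 and 7.40 in MV4-11R, against 7.45 and 7.51 in MV4-11. The lines lay next to each other without overlap, and the difference of -0.11 (SE 0.11) had a 95% interval of -0.37 to 0.15.

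All 6 genes of the cell cycle and chromosome segregation fell, by 0.67 to 1.23 on the log2 scale. All 6 had a mean level above the guide, where 87.5% of the listed genes fell, so this count is close to the share of the list. TFDP1 (Entrez gene 7027), the DP1 subunit that pairs with E2F factors to switch on S phase genes, read 11.52 and 11.41 in MV4-11R, against 12.47 and 12.32 in MV4-11. It fell 1.90-fold (-0.93, SE 0.12) while staying far above background in both lines. TUBGCP3, part of the gamma-tubulin ring that nucleates microtubules, read 9.82 and 9.84 in MV4-11R, against 11.15 and 10.97 in MV4-11, and fell 2.34-fold. BORA, which activates the mitotic kinase Aurora A, fell 2.23-fold (-1.16, SE 0.11), and the centrosome protein PIBF1 fell 2.12-fold. CHAMP1, needed for chromosome alignment, fell 1.78-fold, and CDC16 (Entrez gene 8881), a subunit of the anaphase-promoting complex, fell 1.60-fold (-0.67, SE 0.13).

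Of 5 measured genes of RNA decay, processing and export, 4 fell. ARGLU1, a splicing-associated coactivator, read 8.66 and 8.53 in MV4-11R, against 9.87 and 10.11 in MV4-11, the largest fall of this group (2.64-fold). The RNA-binding protein RBM26 read 9.29 and 9.12 in MV4-11R, against 10.14 and 10.40 in MV4-11 and fell 2.10-fold. DIS3, the ribonuclease of the RNA exosome, fell 1.92-fold (-0.94, SE 0.11). PCID2, a subunit of the TREX-2 mRNA export complex, fell 1.5-fold (-0.58, SE 0.12), and its second probe set gave -0.71 (SE 0.23). MBNL2, a splicing regulator, read 5.43 and 5.32 in MV4-11R, against 5.37 and 5.15 in MV4-11, with overlapping lines and all arrays under the background guide.

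Genes of protein transport, the endoplasmic reticulum and the lysosome fell in 9 of 10 cases, with a median of -0.995. TM9SF2, a Golgi and endosome membrane protein, read 11.82 and 11.83 in MV4-11R, against 12.63 and 12.47 in MV4-11. IPO5, an importin that carries ribosomal proteins and histones into the nucleus, read 9.84 and 9.86 in MV4-11R, against 10.64 and 10.48 in MV4-11. These 2 genes had the smallest falls of the group, 1.65-fold and 1.64-fold, and neither overlapped between lines. LAMP1, a major protein of the lysosomal membrane, had the largest fall, 2.63-fold (-1.40, SE 0.12). COMMD6, a subunit of the endosomal Commander complex, fell 2.28-fold, the putative antiporter gene TMCO3 2.24-fold, UBAC2 of the endoplasmic reticulum membrane 2.22-fold, the mannosyltransferase TMTC4 2.09-fold, the small GTPase RAB20 1.91-fold and the phospholipid flippase ATP11A 1.89-fold. UGGT2, a paralogue of the glycoprotein folding sensor UGGT1, read 3.62 and 3.58 in MV4-11R, against 3.74 and 3.73 in MV4-11, under the guide on all arrays and 0.13 lower.

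All 5 genes of ubiquitin handling and proteolysis fell. All 5 had a mean level above the guide, where 87.5% of the listed genes fell. NDFIP2, an adaptor that activates NEDD4-family ubiquitin ligases, read 8.20 and 8.34 in MV4-11R, against 9.90 and 9.76 in MV4-11. Its 2.95-fold fall was the largest of the group. UCHL3, a ubiquitin hydrolase, read 8.99 and 9.07 in MV4-11R, against 10.18 and 10.11 in MV4-11. TPP2, a giant cytosolic peptidase that trims proteasome products, read 9.97 and 9.56 in MV4-11R, against 10.87 and 10.63 in MV4-11. They fell 2.16-fold and 1.98-fold with no overlap between lines. The ubiquitin ligase MYCBP2 fell 2.10-fold and the neddylation factor DCUN1D2 1.55-fold.

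Of 8 GTPase regulators, kinases and adaptors, 5 fell. RASA3, which switches off RAS and RAP1 and is active in blood cells, read 9.17 and 9.19 in MV4-11R, against 10.82 and 10.68 in MV4-11, a fall of 2.97-fold (-1.57, SE 0.11). STK24, a kinase of the STE20 family, read 9.49 and 9.35 in MV4-11R, against 10.73 and 10.68 in MV4-11. ARHGEF7, an activator of RAC1 and CDC42, read 8.17 and 8.45 in MV4-11R, against 9.42 and 9.53 in MV4-11. Both fell, 2.44-fold and 2.25-fold, with the MV4-11R arrays clearly apart from those of MV4-11. The RAB regulator TBC1D4 fell 1.92-fold (-0.94, SE 0.24) and RAP2A 1.65-fold (-0.73, SE 0.17). KCTD12, an auxiliary subunit of GABA-B receptors, did not pass and differed by -0.50 (SE 0.18), a value that ran from -0.74 to -0.25 as single arrays were left out. FARP1, which acts on RAC1 and CDC42 signalling, read 6.01 and 6.06 in MV4-11R, against 6.15 and 5.97 in MV4-11. DOCK9, an activator of CDC42, read 4.93 and 4.78 in MV4-11R, against 4.99 and 4.87 in MV4-11. The lines overlapped for both, under the guide.

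Receptors and ligands split by level. TNFSF13B, the cytokine BAFF that keeps B cells alive, read 7.90 and 8.21 in MV4-11R, against 9.70 and 9.70 in MV4-11, a fall of 3.12-fold (-1.64, SE 0.14). GPR18, a G protein-coupled receptor of leukocytes, read 6.05 and 5.14 in MV4-11R, against 7.18 and 6.89 in MV4-11. GPR183, the oxysterol receptor that positions immune cells in lymphoid tissue, read 5.93 and 6.13 in MV4-11R, against 7.09 and 7.10 in MV4-11. In MV4-11R these 2 receptors read under the background guide, and the MV4-11R arrays of GPR18 were far apart. GPR180 read 8.56 and 8.57 in MV4-11R, against 9.25 and 9.60 in MV4-11 and fell 1.82-fold. The endothelin receptor EDNRB read 3.84 and 3.76 in MV4-11R, against 4.13 and 3.91 in MV4-11. The ephrin ligand EFNB2 read 5.20 and 4.98 in MV4-11R, against 5.02 and 5.19 in MV4-11. All values of both were under the guide, the lines overlapped for EFNB2, and neither gene passed.

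Transcription factors showed 1 fall among 3. KLF12, a repressor of the Krüppel-like family, read 5.14 and 5.25 in MV4-11R, against 6.71 and 6.71 in MV4-11, a difference of -1.52 (SE 0.11) that ends below the guide in MV4-11R. KLF5, its relative, read 7.64 and 7.56 in MV4-11R, against 7.95 and 8.16 in MV4-11. The lines did not overlap but the difference of -0.46 did not pass. It passed after quantile normalization and when dim genes were left out. DACH1, the most centromeric gene of the list, read 4.85 and 4.91 in MV4-11R, against 4.92 and 4.77 in MV4-11, under the guide with overlapping lines.

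Of 4 metabolic and mitochondrial genes 3 fell. CLYBL, a mitochondrial lyase, read 7.04 and 7.18 in MV4-11R, against 8.77 and 9.02 in MV4-11, a fall of 3.45-fold. PCCA, the biotin-carrying subunit of propionyl-CoA carboxylase, read 7.46 and 7.84 in MV4-11R, against 9.17 and 9.22 in MV4-11, and fell 2.93-fold (-1.55, SE 0.15). TGDS, a sugar nucleotide dehydratase, read 6.53 and 6.90 in MV4-11R, against 7.34 and 7.41 in MV4-11 and fell 1.58-fold. CARS2, the mitochondrial cysteinyl-tRNA synthetase, read 8.88 and 8.70 in MV4-11R, against 9.14 and 9.10 in MV4-11. Its lines were apart by less than those of the other mitochondrial genes, at -0.33 (SE 0.12), and it did not pass.

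The largest difference of the list was in a cytoskeletal gene. SLAIN1 (Entrez gene 122060), which promotes growth of microtubules at their plus ends, read 5.13 and 5.84 in MV4-11R, against 9.00 and 9.43 in MV4-11. MV4-11 was well above background and MV4-11R under the guide, a log2 difference of -3.73, SE 0.26. LMO7, a protein of cell junctions and actin, read 5.88 and 6.12 in MV4-11R, against 7.67 and 7.78 in MV4-11 and fell 3.31-fold. DZIP1, which is needed to form cilia, read 5.15 and 4.81 in MV4-11R, against 5.20 and 4.99 in MV4-11, with overlapping lines under the guide. Among genes given no role here, ANKRD10 read 7.41 and 7.64 in MV4-11R, against 8.78 and 9.24 in MV4-11 and fell 2.81-fold. TEX30 read 8.22 and 8.20 in MV4-11R, against 9.10 and 8.90 in MV4-11 and fell 1.73-fold. BIVM read 6.21 and 6.75 in MV4-11R, against 6.43 and 6.19 in MV4-11. It was the only listed gene above the guide whose mean was higher in MV4-11R, by 0.17 (SE 0.20), and its lines overlapped. A further probe set, listed for BIVM and a second gene and not used in the tests, read 6.21 and 6.19 in MV4-11R, against 7.33 and 7.45 in MV4-11, so the probe sets of BIVM disagree.

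**Figure D2:**
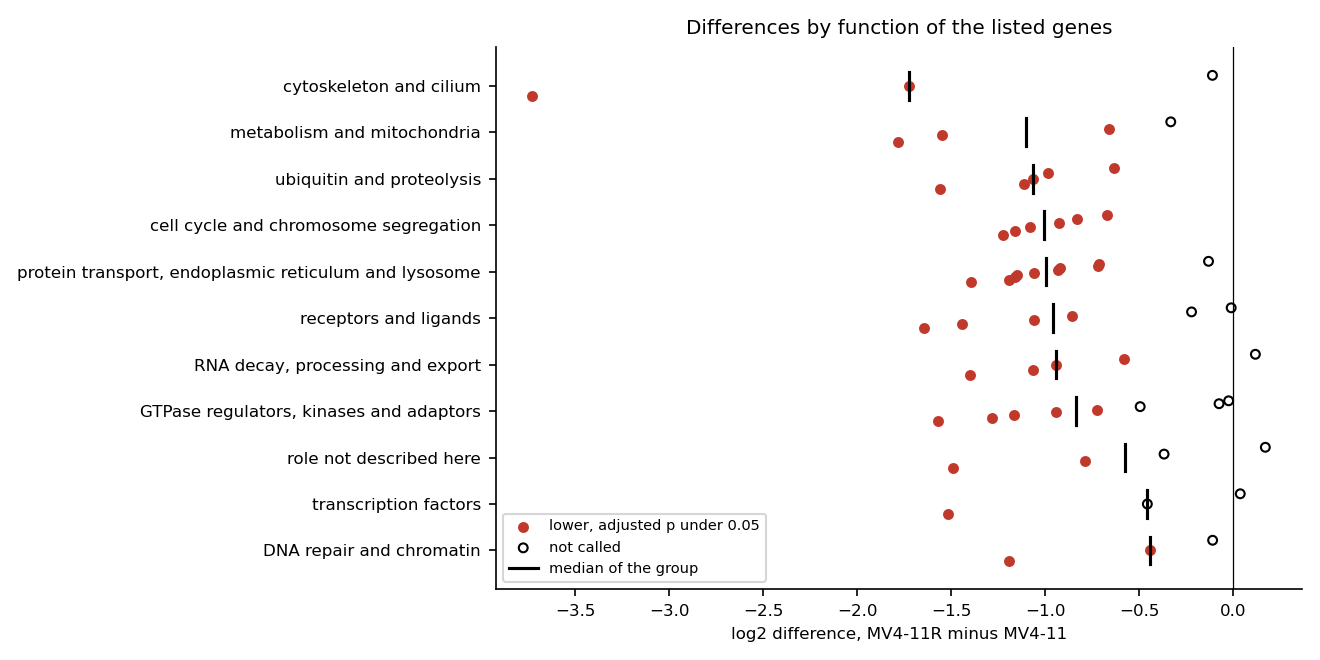
Log2 difference, MV4-11R minus MV4-11 (horizontal axis), of each measured gene in its function group (vertical axis). Filled points fell, open points did not pass, and bars are group medians, which run from -1.73 for the 3 cytoskeletal and cilium genes to -0.44 for the 3 genes of DNA repair and chromatin.

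With 1 array left out, a line is represented by a single array, and limma takes the spread from the other line and from all genes. Leaving out 1 array lowered the number of falls to 37 without MV4-11R replicate 1, 38 without MV4-11R replicate 2, 37 without MV4-11 replicate 1 and 35 without MV4-11 replicate 2. CUL4A and PCID2 lost their call without any 1 of the 4 arrays. RAP2A lost it without MV4-11R replicate 1, MV4-11R replicate 2 or MV4-11 replicate 2, and TGDS without MV4-11R replicate 1, MV4-11 replicate 1 or MV4-11 replicate 2. TBC1D4 and RAB20 lost it without MV4-11R replicate 1 or MV4-11 replicate 2, and CDC16 and DCUN1D2 without MV4-11R replicate 2 or MV4-11 replicate 2. GPR18, IPO5, TM9SF2 and TPP2 lost it without MV4-11 replicate 1, where KCTD12 passed.

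Genes that did not pass lay among genes that fell. CARS2 and ING1 are next to each other in gene order. The measured gene before them, NAXD, which repairs a damaged form of NADH and is not on the list, fell 2.59-fold, and ANKRD10, the next listed gene after them, fell 2.81-fold. Among listed genes KLF5 lies between PIBF1 and KLF12, which both fell. ABHD13 read 9.32 and 9.43 in MV4-11R, against 9.65 and 9.84 in MV4-11, without overlap, and its difference of -0.37 (SE 0.12) did not pass, while LIG4, whose RefSeq start is 43 bases away on the opposite strand, fell 2.29-fold.

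Such start-to-start neighbours were looked for among all listed genes. In 4 pairs the genes began within 1000 bases of each other and ran apart in opposite directions. PCID2 and CUL4A, next to each other on opposite strands, were not among these pairs and had log2 differences of -0.58 and -0.44. COMMD6 and UCHL3, 63 bases apart, had log2 differences of -1.19 and -1.11. DIS3 and PIBF1, 233 bases apart, had -0.94 and -1.08, and DCUN1D2 and TMCO3, 310 bases apart, had -0.64 and -1.16. The gap between neighbours was thus 0.08 for COMMD6 and UCHL3 and 0.83 for LIG4 and ABHD13, a comparison that was not tested. The promoter windows of COMMD6 and UCHL3, whose differences were close, of LIG4 and ABHD13, whose differences were apart, and of SLAIN1, the gene of largest difference, are given from RefSeq (GRCh38.p14), 250 bases before to 50 after the start, 5′ to 3′ on the gene's strand. Capitals mark matches, on either strand, to the GC box (GGGCGG), the CCAAT box (CCAAT), an ETS motif (CCGGAAG) or the TATA box (TATAAA).
COMMD6, chr13:75549390-75549689, minus strand: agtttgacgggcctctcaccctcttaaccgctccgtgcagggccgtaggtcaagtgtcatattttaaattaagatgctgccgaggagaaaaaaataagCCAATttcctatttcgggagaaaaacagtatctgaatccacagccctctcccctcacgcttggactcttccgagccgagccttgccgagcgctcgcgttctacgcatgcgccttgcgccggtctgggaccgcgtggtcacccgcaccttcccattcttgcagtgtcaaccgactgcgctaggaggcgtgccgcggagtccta
UCHL3, chr13:75549252-75549551, plus strand: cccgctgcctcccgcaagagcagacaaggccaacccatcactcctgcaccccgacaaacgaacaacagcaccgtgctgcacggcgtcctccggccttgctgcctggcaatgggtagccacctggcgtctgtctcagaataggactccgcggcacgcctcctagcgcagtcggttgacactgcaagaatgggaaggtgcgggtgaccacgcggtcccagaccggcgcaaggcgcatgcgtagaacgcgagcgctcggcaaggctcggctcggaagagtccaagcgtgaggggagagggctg
LIG4, chr13:108218300-108218599, minus strand: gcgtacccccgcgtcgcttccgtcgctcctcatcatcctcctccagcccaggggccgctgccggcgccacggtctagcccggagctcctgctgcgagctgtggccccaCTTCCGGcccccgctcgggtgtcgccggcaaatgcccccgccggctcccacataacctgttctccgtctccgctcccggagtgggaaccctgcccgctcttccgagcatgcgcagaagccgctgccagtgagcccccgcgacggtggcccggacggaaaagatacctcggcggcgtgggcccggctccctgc
ABHD13, chr13:108218142-108218441, plus strand: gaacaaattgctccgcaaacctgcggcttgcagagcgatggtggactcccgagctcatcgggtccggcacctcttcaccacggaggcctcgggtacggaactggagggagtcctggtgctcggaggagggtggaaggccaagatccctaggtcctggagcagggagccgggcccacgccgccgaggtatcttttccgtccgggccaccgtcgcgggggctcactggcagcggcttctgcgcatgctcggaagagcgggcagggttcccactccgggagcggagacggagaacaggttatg
SLAIN1, chr13:77697437-77697736, plus strand: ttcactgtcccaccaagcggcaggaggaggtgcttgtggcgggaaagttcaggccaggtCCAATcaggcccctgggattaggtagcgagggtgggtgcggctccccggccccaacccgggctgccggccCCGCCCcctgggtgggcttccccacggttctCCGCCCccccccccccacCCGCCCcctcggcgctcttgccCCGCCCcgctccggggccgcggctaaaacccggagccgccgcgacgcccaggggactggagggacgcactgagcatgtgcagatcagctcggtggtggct

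COMMD6 had 1 CCAAT match and LIG4 1 ETS match, SLAIN1 had 4 GC boxes and 1 CCAAT match, and UCHL3 and ABHD13 had no match to the letters searched. RefSeq windows were found for 55 of the 57 genes, all but TBC1D4 and RAB20. The 41 genes that fell had a median of 28 CG dinucleotides in 300 bases (range 0 to 52). The 14 that did not pass had a median of 24.5 (range 4 to 49), and all 35116 RefSeq windows of this length a median of 14. Of the 14, 8 read at or under the background guide in both lines. By level alone, the median was 27.5 for 46 listed genes above the guide and 23 for 9 not above it. The part of signal level in these comparisons was not tested. A GC box was present in 24 of the 41 fallen genes, in 7 of the 14 others and in 45.0% of all windows. CCAAT was present in 17 of the 41, in 4 of the 14 and in 34.6% of all windows, the ETS motif in 8, in 3 and in 10.3%, and the TATA box in 2, in 2 and in 11.5%. TNFSF13B had 0 CG dinucleotides and fell 3.12-fold, whereas TFDP1 had 52 and fell 1.90-fold, so falls occurred at both ends of that range.

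The rest of chromosome 13 was set beside the list. Over all 18417 genes 7.13% fell and 7.92% rose. Another 57 measured genes lie between DACH1 and CHAMP1 without being listed. Of these, 7 fell (12.3%) and 0 rose, and 13 were lower and 0 higher at an unadjusted p under 0.05 by limma. Their median difference was -0.06, and it was -0.10 without MV4-11R replicate 1 and -0.15 without MV4-11 replicate 2. Without MV4-11 replicate 1, 1 of them rose. Of these 57 genes 30 were not above the background guide, and 0 of the 30 were called, while 3 were lower at an unadjusted p under 0.05. All 7 falls were among the other 27 (25.9% of them), whose median was -0.07. Of all genes above the guide 9.46% fell. The listed genes were chosen with the differences known, so the contrast between them and their unlisted neighbours is no independent result. The falls of largest size among unlisted neighbours were of GAS6, the ligand of TAM receptor kinases (3.51-fold, adjusted p = 0.00154 by limma), the drug and nucleotide exporter ABCC4 (3.16-fold), NAXD, the chaperone DNAJC3 (2.51-fold) and the replication origin ubiquitin ligase OBI1 (2.26-fold). The highest differences there, among genes above the guide, were those of GRTP1 (0.18), F7 (0.07), LMO7DN (0.06), SOX1 (0.06) and SOX21 (0.03), none of which passed. The MV4-11 means of these genes ran from 6.48 (SOX1) to 6.90 (SOX21), close above the guide. They also count among the 27 genes with a median of -0.07. The listed gene KLF12 had an MV4-11 mean in the same range, 6.71, and an MV4-11R mean of 5.19. Whether a level close to the guide limits the fall that can be seen was not tested.

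Toward the centromere the picture changed along the arm. Over all genes tested 7.13% fell and 7.92% rose. Of 203 genes before DACH1, 54 fell (26.6%) and 5 rose, with a median of -0.14. The rises numbered 2 without MV4-11R replicate 1, 9 without MV4-11R replicate 2, 2 without MV4-11 replicate 1 and 3 without MV4-11 replicate 2, and the median was -0.23 without MV4-11 replicate 2. Restricted to genes with a mean level above the guide, in gene order, the first 33 genes had a median of -0.0045 with 7 falls, the next 20 (GTF3A to EEF1DP3) -0.06 with 4, and the next 20 (FRY to MRPS31) 0.11 with 1, that of FRY (-3.43, adjusted p = 0.000277 by limma). The 20 genes from SLC25A15 to SLC25A30 had a median of -0.20, and 8 of them fell and 3 rose. The following 20, from COG3 to KPNA3, had a median of -1.16 with 17 falls, and the 20 from SPRYD7 to the last one before DACH1 had -0.80 with 14 falls. From DACH1 on, the medians were -1.01 over 20 genes (BORA to TGDS), -0.92 over 20 (GPR180 to TPP2) and -0.67 over 35 (TEX30 to CHAMP1), with 13, 14 and 22 falls and 0 rises in each. These 3 stretches hold 14, 12 and 22 of the listed genes, which were chosen for low values, so their medians are a description. Their unlisted genes had medians of -0.13 over 6 genes, -0.12 over 8 and -0.07 over 13, with 1, 2 and 4 falls. These unlisted genes include LMO7DN, SOX21 and SOX1, which read close above the guide. The part of signal level in these medians was not tested. Among all genes above the guide 9.46% fell. The guide was applied to the mean of both lines, so SLAIN1 and other genes above it only in MV4-11 entered through that line. The edges of the stretches follow from counting genes and mark no boundary, since LACC1, TSC22D1, NUFIP1, GPALPP1, GTF2F2 and SLC25A30, which lie shortly before COG3, also fell.

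**Figure D3:**
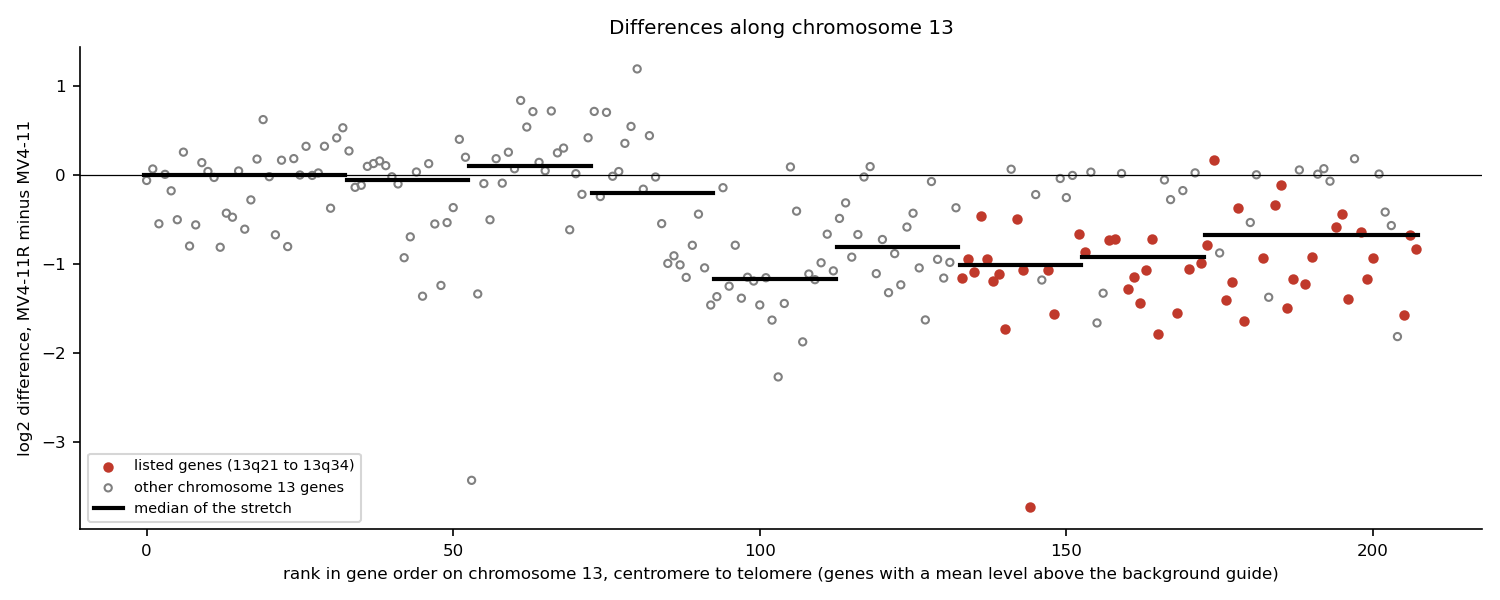
Log2 difference, MV4-11R minus MV4-11 (vertical axis), of 208 chromosome 13 genes with a mean level above the background guide, ranked from centromere to telomere (horizontal axis). Filled points are listed genes, open points other genes, and black bars medians of consecutive stretches, which lie between -0.20 and 0.11 in the first 4 stretches and between -1.16 and -0.67 in the last 5. The last 3 stretches contain the listed genes, which were chosen for low values. The guide was applied to the mean of both lines, so some genes pass it through the line where they are high.

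Before DACH1 the largest falls besides FRY were of RCBTB2 (-2.27), the LKB1 cofactor paralogue CAB39L (-1.87), the retinoblastoma gene RB1 (-1.63) and the spindle protein CKAP2 (-1.63). CAB39L read 5.23 and 5.43 in MV4-11R, under the guide, against 7.06 and 7.34 in MV4-11, so the size of its fall is not exact. The highest differences were of RGCC (1.19), RFXAP (0.84, not passing), UFM1 (0.72), SLC25A15 (0.71) and EXOSC8 (0.71, not passing). Over genes above the guide, the median of chromosome 13 was -0.50, with 48.1% of 208 genes fallen, against 9.46% of such genes over the whole table. The 48 listed genes among them were chosen for low values, and without them the median was -0.22 and 58 of 160 genes (36.3%) had fallen. The guide was applied to the mean of both lines, so genes such as CAB39L entered through the line where they are high. The medians of the other autosomes and the X chromosome ran from -0.13 (chromosome 6) to 0.49 (chromosome 18).

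Several listed genes work in complexes whose other members are encoded elsewhere, which allows the fall to be set beside genes of the same function on other chromosomes. The partner list also holds DIS3L, CUL4B and TFDP2, which are paralogues of listed genes. Of its 83 genes 78 were measured and lie outside chromosome 13. Of these 78, 11 rose, 67 did not pass and 0 fell in limma's fit, with 3 lower and 23 higher at an unadjusted p under 0.05. Over all genes 15.1% passed in either direction, a share close to that of the partners, with 7.92% risen and 7.13% fallen. Of the 12615 genes above the guide, 1342 rose. The median difference of the partners was 0.11. For 11 of the 12 listed genes with measured partners, every measured partner had a higher difference than the listed gene, and the exception was ING1, which did not pass. The listed genes were chosen for low values in MV4-11R and the partners were not, so this order was largely set by the choice and is no independent result.

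LIG4 fell 2.29-fold, whereas its end-joining partners NHEJ1 (1.70-fold, adjusted p = 0.0093 by limma) and the kinase PRKDC (1.70-fold, adjusted p = 0.0414 by limma) rose. NHEJ1 read 9.32 and 9.32 in MV4-11R, against 8.61 and 8.50 in MV4-11, the opposite order of LIG4. XRCC4, which binds LIG4 directly, differed by 0.37 and did not pass, and the other 4 partners ran from -0.31 to 0.32.

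CDC16 fell 1.60-fold, and of 13 other subunits of the anaphase-promoting complex 3 rose. ANAPC1, the platform subunit, read 9.29 and 9.28 in MV4-11R, against 8.33 and 7.96 in MV4-11, a rise of 2.20-fold (adjusted p = 0.00707 by limma). ANAPC7 rose 1.39-fold and ANAPC10 1.48-fold, and the remaining 10 did not pass.

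DIS3 fell 1.92-fold, and 4 of its 10 partner genes on other chromosomes, which are exosome subunits and the paralogue DIS3L, rose. EXOSC4, a subunit of the exosome ring, read 10.67 and 10.55 in MV4-11R, against 9.14 and 9.20 in MV4-11, a rise of 2.71-fold (adjusted p = 0.00175 by limma). EXOSC1 rose 1.56-fold, EXOSC3 1.47-fold and the DIS3 paralogue DIS3L 1.54-fold. The exosome subunit EXOSC8 is on chromosome 13 and was left out of this count.

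Elsewhere TUBGCP5 rose 1.55-fold beside the fall of TUBGCP3, and COMMD1 1.59-fold beside that of COMMD6. For the other listed genes no partner passed. The partner of largest difference was E2F1 for TFDP1 (0.57), AURKA for BORA (0.38), DDB2 for CUL4A (-0.31), ENY2 for PCID2 (0.34), SAP30 for ING1 (0.44), MAD2L2 for CHAMP1 (-0.09) and UPF2 for UPF3A (-0.55). PCCB, the other subunit of propionyl-CoA carboxylase, differed by -0.00076 (SE 0.11) while PCCA fell 2.93-fold.

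The number of partners that rose was 5 without MV4-11R replicate 1, 8 without MV4-11R replicate 2, 5 without MV4-11 replicate 1 and 5 without MV4-11 replicate 2. ANAPC1, EXOSC4 and NHEJ1 passed in each of these, and the other 8 lost their call in at least 1. E2F1, EXOSC5 and SAP30 rose only without MV4-11R replicate 2 among these 4 fits. Without MV4-11R replicate 1, UPF2 differed by -0.71 (adjusted p = 0.0479 by limma, with the spread taken from the MV4-11 arrays and from all genes).

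**Figure D4:**
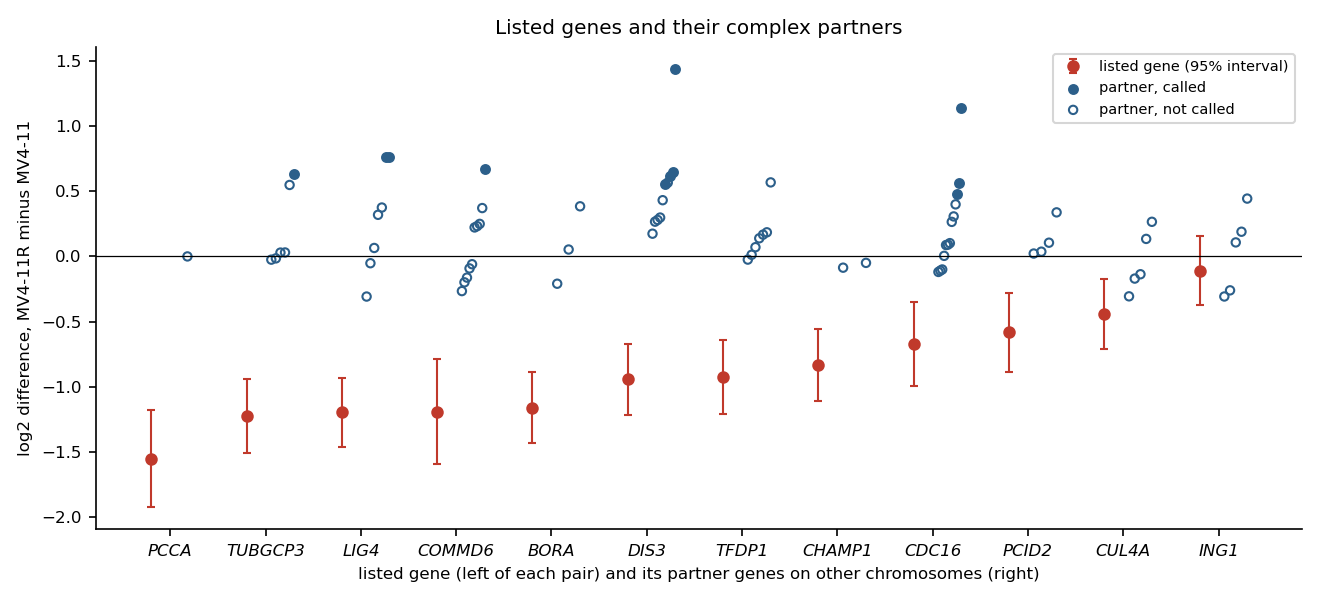
Log2 difference, MV4-11R minus MV4-11 (vertical axis), of 12 listed genes with 95% intervals from limma, each left of its partner genes on other chromosomes (horizontal axis). Filled partner points passed the test and open ones did not. All partners lie above their listed gene except those of ING1, of which 3 of 5 do, and they range from -0.31 to 1.44. The listed genes were chosen for being lower in MV4-11R, which largely sets this order.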

How the data were processed

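RNA of the 2 lines was measured on 4 Affymetrix whole-transcript arrays, 2 per line, and groups follow the labels. The deposited values are log2 signals, which the authors obtained by RMA; the submitters' processing notes name Expression Console as the program. Software versions and a genome build are not given in the sources used here. RMA applies quantile normalization, so values are relative to each array's whole distribution. Of 33297 probe sets, 19460 list 1 gene, 1754 list several and 12083 are unlisted in the platform annotation. Only the first kind was used, with symbols updated through RefSeq (31 Entrez IDs had no match), and the brightest probe set was kept for the 769 genes with more than 1. This left 18417 genes.

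Lines were compared with limma 3.58.1 (lmFit and eBayes in R 4.3.3, 6.06 total degrees of freedom), with p-values adjusted by Benjamini-Hochberg over all genes and a threshold of 0.05. The arrays of a line are not stated to be separate cultures, so p-values measure only the spread between arrays. The number of arrays limits the precision. The listed genes, function groups and partner genes were chosen with earlier results of these data known. Values of every array were given for the 10 most negative listed genes, those above -0.25, those whose lines overlap, up to 2 more of highest level in each function group and a few more that did not pass. Unlisted neighbours were named as the 5 most negative and 5 most positive differences above the background guide on either side of DACH1, and partners if they passed or had the largest difference for their gene. Alternatives were a replicate block, each array left out, median centring, quantile normalization, the mean of probe sets, 2 filters on dim genes and a variance trend.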

Additional observations from a re-analysis of the deposited data

How the results depend on the processing

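With 1 array left out, a line has 1 array, assumed to vary like the other line. The number of listed genes that fell was 43 by default, 35 to 38 with 1 array left out, and 42 to 44 under median centring, quantile normalization, the mean of probe sets, the variance trend and both filters on dim genes. Their median of -0.94 ran from -0.998 to -0.911 with 1 array left out, and was -1.06 under either filter. The filters use the mean of both lines, so genes above the guide only in MV4-11 (SLAIN1, LMO7, GPR18, GPR183 and TBC1D4) pass through the line where they are high, and this median supports nothing further. No called result changed direction in these alternatives. Counts over the whole table depended more on single arrays. Falls numbered 1314 by default and 792 to 1240 with 1 array left out, and rises 1458 and 713 to 1239. Partner genes showed 11 rises by default and 5 to 8 with 1 array left out, with 0 to 1 falls and medians of 0.10 to 0.15. Before DACH1, 5 genes rose by default, 9 under either filter and 2 to 9 with 1 array left out. The median there was -0.14 by default, -0.28 under the guide filter and -0.23 to -0.10 with 1 array left out. The unlisted genes between DACH1 and CHAMP1 had medians of -0.15 to -0.042 and 0 to 1 rises with 1 array left out. The cause of these shifts was not tested.

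With replicate number as a block, the same 43 listed genes fell, 14 partners rose, 65 genes before DACH1 fell and 10 rose, and the whole table held 1716 falls and 1926 rises. Deviations of same-numbered arrays correlated at r = 0.262 over genes, but the labels tie the numbers to no shared culture or day, so the numbers were not treated as pairs. With 2 arrays per line, listed genes with differences between -0.50 and -0.33 (KCTD12, KLF5, ABHD13 and CARS2) did not pass while CUL4A at -0.44 did, and genes under the background guide carry no exact fold.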
